A study of Mus musculus with 6 samples.

Results

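Chemokines are small secreted proteins that guide migrating leukocytes, and chemokine receptors are the G protein-coupled receptors that read them. The genes described here are those of mouse chemokines and chemokine receptors on an Affymetrix array of liver RNA. They were taken by symbol: a probe set (a group of short array probes for 1 transcript) had to carry exactly 1 gene symbol in the platform annotation. That symbol had to start with Ccl, Cxcl, Cx3cl, Xcl, Ccr, Cxcr, Cx3cr, Xcr or Ackr followed directly by a digit. This gave 86 of 45037 probe sets, which stand for 54 of 18193 genes, 33 of ligands and 21 of receptors. Of the 54 genes, 40 lay above the level filter used here as background and were tested among 14071 genes in all. The rule itself uses symbols and no measured value.

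The livers came from male C57BL/6 mice, an inbred laboratory strain, fed for 12 weeks, from the age of 8 weeks, on normal or on high-fat chow. Fat supplied 60% of the calories of the high-fat diet. Each diet had 6 mice, and RNA was pooled from 2 mice per array, giving 3 Mouse Genome 430 2.0 arrays per diet (n = 3). No allele or drug differed between the groups, and all mice shared strain, sex and starting age. Whole liver was used, so levels of all its cell types are mixed, and fewer cells of a type cannot be told apart from less RNA per cell. The p-values weigh differences against the spread between arrays of pools, whose small number limits the precision.

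Chemokines are named by the spacing of their first cysteines, as CC, CXC, CX3C or XC. CXC chemokines with the motif Glu-Leu-Arg (ELR), such as Cxcl1, attract neutrophils through Cxcr2, while Cxcl9, Cxcl10 and Cxcl11 are induced by interferon and attract T and NK cells through Cxcr3. Ccl2 recruits monocytes through Ccr2. Atypical receptors (Ackr) bind and remove chemokines without G protein signalling. In liver, hepatocytes, Kupffer cells (the resident macrophages), endothelial cells and stellate cells are all known sources of chemokines.

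The labelled tissue fitted its markers: all 5 measured hepatocyte markers were above the filter and 0 were called, and their summed linear level was 66741 to 69569 in the normal and 67205 to 69726 in the high-fat arrays. Normal diet 3 stood apart from the other normal arrays on the first principal component (score -46.2, against -15.6 and -12.5). Gapdh control probe sets, which track RNA integrity, gave a 3' minus 5' value of 0.36 for normal diet 1 and of -0.19 to 0.01 for the other arrays. Some markers of several other cell types were called, where 5.87% of all tested genes were called higher and 1.73% lower. Of 8 Kupffer cell markers 4 rose (Adgre1, Vsig4, Cd5l and Csf1r) and Timd4, Marco, Clec4f and Folr2 differed by -0.15 to 0.08, not called, with a summed level of 2100 to 2535 in the normal and 3367 to 3636 in the high-fat arrays. Of 6 tested monocyte and recruited macrophage markers 3 rose (Lyz2, Gpnmb and Itgax), at a summed level of 697 to 938 against 1338 to 1553. In that list Trem2 lay lower without overlap (-0.43 ± 0.15, adjusted p = 0.117), and Itgam was below the filter. Of 8 stellate cell and fibroblast markers 3 rose (Dcn, Col3a1 and Lrat), at 1552 to 1577 against 2271 to 2924. Of 7 sinusoidal endothelial markers 1 rose (Lyve1), at 1240 to 1359 against 1430 to 1601, and of 3 pancreas markers 1 fell (Cela1), at 463 to 649 against 326 to 368. Each count of called Kupffer cell, macrophage, stellate cell, endothelial and pancreas markers was 0 without high-fat 3.

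Of the 40 tested chemokine and receptor genes, limma called 3 at an adjusted p below 0.05. Ccl5 and Cxcl10 rose and Cxcl1 fell. That is 7.5%, against 7.6% of all tested genes, so the family as a whole was called about as often as the background. By direction, 5.87% of all tested genes were called higher and 1.73% lower. The groups did not overlap in 16 of the 40 genes, 6 with the high-fat arrays above and 10 with them below. Over all tested genes 35.8% did not overlap, 21.1% above and 14.7% below. All 3 calls were of ligands. None of the 13 tested receptors was called by limma at the adjusted threshold, with differences from -0.38 to 0.27 on the log2 scale. The median difference was -0.05 over the 40 genes and 0.003 over all tested genes, and 28 of the 40 lay within 0.25 of 0. Differences were above 0 in 17 of the 40, and in 50.5% of all tested genes.

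**Figure D1:**
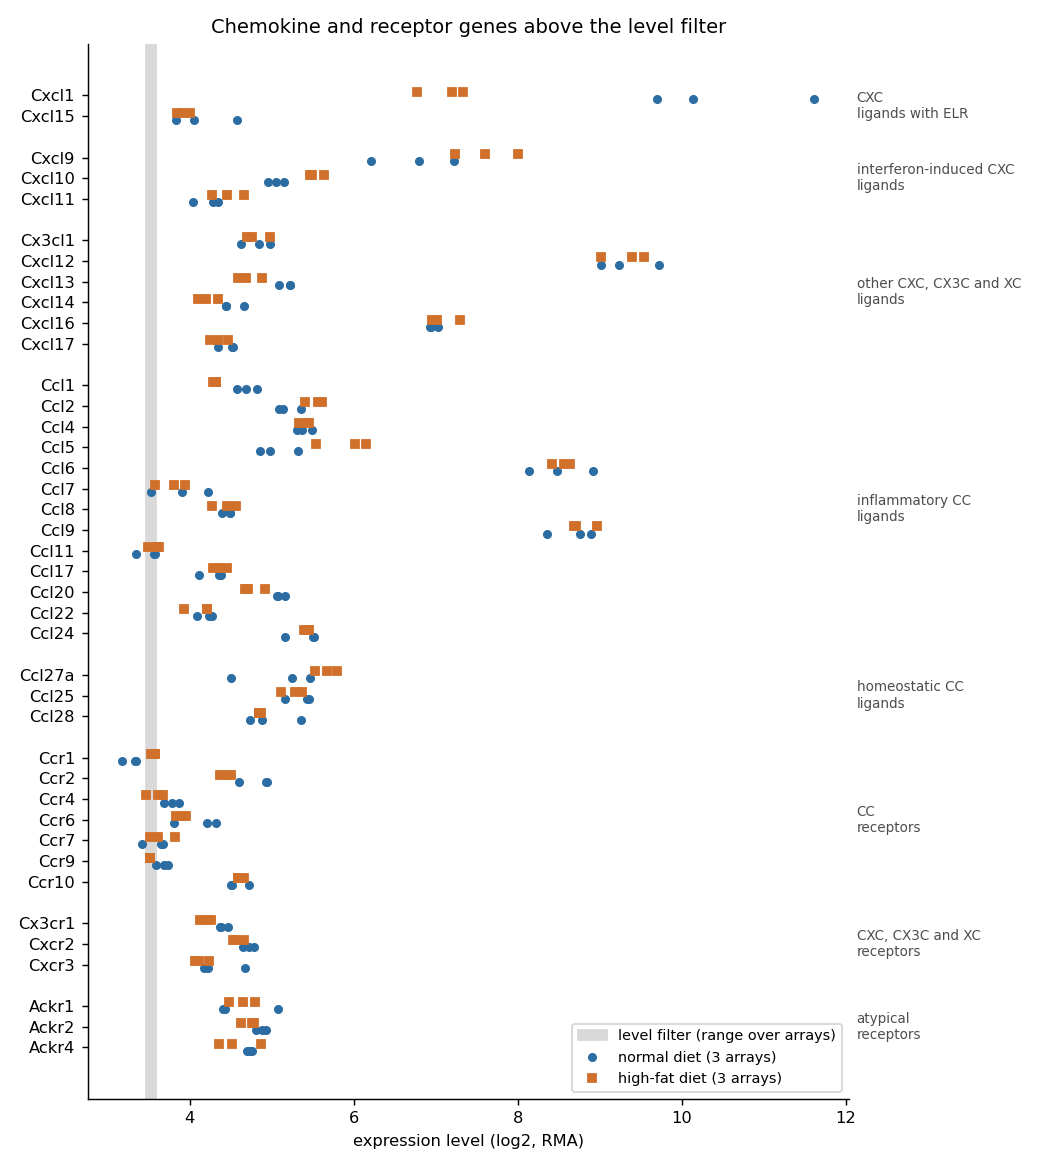
Expression level (log2, RMA) of the 40 tested chemokine and receptor genes on each array, 1 point per array, with blue circles for normal and orange squares for high-fat diet, ordered by role. The grey band is the range of the level filter over the arrays; Cxcl1 is the gene whose groups lie farthest apart, and most other genes overlap or nearly touch.

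**Figure D2:**
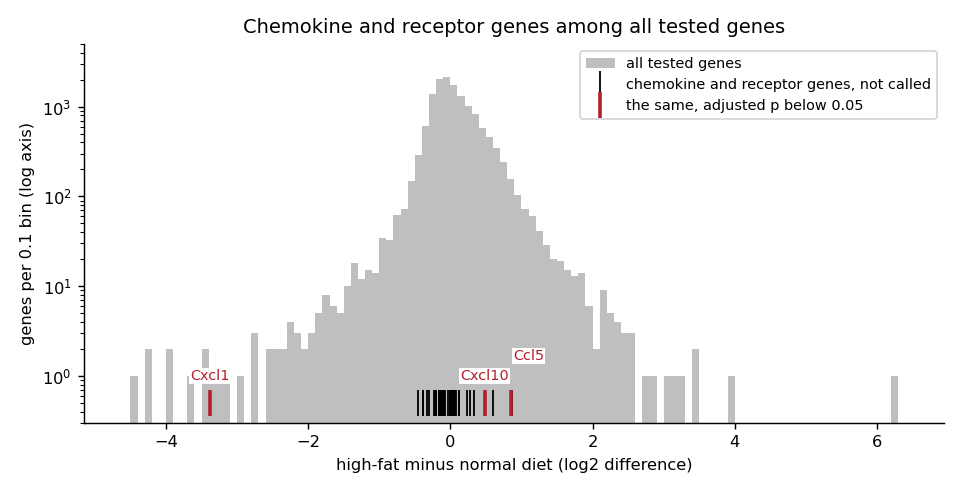
Number of tested genes per 0.1 bin of the log2 difference, high-fat minus normal diet (grey bars, log axis), with the 40 chemokine and receptor genes as ticks, red where called. Cxcl1 at -3.38 lies in the far lower tail, while Cxcl10 and Ccl5, at 0.48 and 0.85, lie in the upper shoulder.

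Among the CXC ligands with ELR, Cxcl1 was 10.4-fold lower under the high-fat diet. Its level (log2, probe set 1457644_s_at) was 9.69, 10.13 and 11.61 in normal diet 1, 2 and 3 and 7.33, 6.77 and 7.19 in high-fat 1, 2 and 3. Every high-fat array was thus more than 2 log2 units below every normal array, and normal diet 3, which also stood apart on the first principal component, was the highest. The difference was -3.38 ± 0.45 (SE, n = 3 per diet, limma adjusted p = 0.00936) and ranked 9 from the lowest among the 14071 genes.

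All 3 Cxcl1 probe sets fell. Probe set 1419209_at lay at 8.93, 9.49 and 10.78 in the normal and 6.51, 5.94 and 6.09 in the high-fat arrays. It differed by -3.56 ± 0.43 (limma, each probe set tested on its own, adjusted p = 0.0079). The third, 1441855_x_at, whose suffix marks probes that can match other transcripts, differed by -1.61 ± 0.25 (adjusted p = 0.0156). The decrease was -2.81 (adjusted p = 0.000766) without normal diet 3, while the call ended without high-fat 2 (-3.22, adjusted p = 0.0508) or high-fat 3 (-3.43, adjusted p = 0.0542) and with a plain equal-variance test (adjusted p = 0.105).

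The ligands most like Cxcl1 did not share this level. Cxcl2, Cxcl3 and Cxcl5, further ELR ligands of Cxcr2, were below the filter on all 6 arrays. Cxcl2 lay at 2.33, 2.19 and 2.49 in the normal and 2.94, 2.78 and 2.65 in the high-fat arrays, which do not overlap but lie where the array gives no reliable level. Cxcl15, an ELR chemokine known from lung, differed by -0.23 ± 0.19 and was not called (adjusted p = 0.447). The receptor Cxcr2 was 4.79, 4.66 and 4.72 in the normal and 4.66, 4.55 and 4.53 in the high-fat arrays, with a difference of -0.14 ± 0.10 (adjusted p = 0.370, interval -0.37 to 0.08). Of 8 measured neutrophil markers 5 were tested and 0 called by limma. At an unadjusted p below 0.05, which 27.6% of all tested genes had, there were 2. They lay in opposite directions, Camp (0.35 ± 0.09) and S100a9 (-0.59 ± 0.25). After cyclic loess or median centring, with averaged probe sets and with array weights 1 of the 5 was called higher. Their summed level was 178 to 266 in the normal and 147 to 182 in the high-fat arrays, and Ltf, Mmp8 and Mpo were below the filter. The part of neutrophils in the Cxcl1 difference was not tested.

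The Cxcl1 promoter is shown beside those of Cxcl2, its next protein-coding neighbour in the RefSeq gene order, and Cxcl10, a called gene of opposite direction. Each is the 250 bases before the annotated start, 5′ to 3′, from RefSeq on GRCm38.p6. Capitals mark matches on either strand to 2 motifs. The first is GGG and TTCC with any 3 bases between them, a form of the site of the transcription factor NF-kappaB. The second is GAAA and GAAA with any 2 bases between them, the core of the interferon-stimulated response element. Overlapping matches run together.
Cxcl1, chr5:90890995-90891244, plus strand: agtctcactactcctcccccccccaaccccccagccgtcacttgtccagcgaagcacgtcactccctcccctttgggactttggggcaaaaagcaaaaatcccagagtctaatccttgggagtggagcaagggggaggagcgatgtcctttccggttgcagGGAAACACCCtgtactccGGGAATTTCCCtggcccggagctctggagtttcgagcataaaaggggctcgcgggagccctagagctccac
Cxcl2, chr5:90903649-90903898, plus strand: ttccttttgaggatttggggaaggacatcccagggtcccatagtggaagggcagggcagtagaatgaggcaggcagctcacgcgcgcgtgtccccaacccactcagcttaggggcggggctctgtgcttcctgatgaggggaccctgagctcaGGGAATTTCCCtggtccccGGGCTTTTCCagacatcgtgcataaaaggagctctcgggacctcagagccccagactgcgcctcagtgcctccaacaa
Cxcl10, chr5:92348890-92349139, minus strand: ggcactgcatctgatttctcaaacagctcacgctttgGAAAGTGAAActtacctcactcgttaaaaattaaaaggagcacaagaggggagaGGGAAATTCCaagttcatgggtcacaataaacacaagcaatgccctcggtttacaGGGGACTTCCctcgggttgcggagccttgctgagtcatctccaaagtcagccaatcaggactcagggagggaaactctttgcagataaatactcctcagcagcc

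In Cxcl1 the matches to the first motif began 89, 71 and 70 bases before the start, the last 2 overlapping as GGGAATTTCCC. Cxcl2 held the same 11 letters, beginning 97 bases before its start, and a further match 78 bases before it. Cxcl10 had matches at 159 and 104 bases and the interferon motif, as GAAAGTGAAA, at 213 bases. Promoters of 300 bases (250 before and 50 after the start) were found for 41 of the 54 genes, 45 promoters in all. The first motif occurred in 9 of the 45 (20.0%) and in 5.56% of all 32851 promoters, and the interferon motif in 2 of 45 (4.44%) and 3.44%. The 9 belonged to Ccl1, Ccl9, Ccl20, Ccr3, Ccr6, Cxcl1, Cxcl2, Cxcl3 and Cxcl10, which include genes that fell, rose, were not called and were below the filter. A match is a description of the letters only.

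The interferon-induced ligands all had higher means under the high-fat diet, and 1 of 3 was called higher, against 5.87% of all tested genes. Normal diet 3, which stood apart on the first principal component, was the lowest array for all 3. It was also the lowest for 3944 of all 14071 tested genes. Cxcl10 was 5.05, 5.15 and 4.95 in the normal and 5.64, 5.47 and 5.50 in the high-fat arrays, with no overlap. It rose 1.40-fold (0.48 ± 0.10, n = 3, limma adjusted p = 0.0351). The call ended without normal diet 1 (adjusted p = 0.0616), without high-fat 1, 2 or 3 (adjusted p = 0.131, 0.108 and 0.112) and with the plain equal-variance test (adjusted p = 0.0952).

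Cxcl9 had a larger difference but a wider spread. Its level was 6.79, 7.23 and 6.21 in the normal and 7.23, 7.60 and 8.00 in the high-fat arrays, so that normal diet 2 all but reached high-fat 1. The difference of 0.87 ± 0.28 was not called (adjusted p = 0.104, 95% interval 0.21 to 1.53), and it was 0.57 when its probe sets were averaged. Cxcl11 differed by 0.24 ± 0.14 (adjusted p = 0.294), and its arrays overlapped. Its other probe set, 1419698_at, was below the filter on all arrays and differed by -0.02.

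Cxcr3, the receptor of all 3 ligands, was 4.18, 4.23 and 4.68 in the normal and 4.23, 4.12 and 4.07 in the high-fat arrays (-0.22 ± 0.15, adjusted p = 0.368). Cell types known to carry Cxcr3 gave no call either. Of 8 measured T cell markers 5 were tested and 0 were called by limma. An unadjusted p below 0.05 was found for 0 of the 5, and for 27.6% of all tested genes. The summed level of these T cell markers was 190 to 207 in the normal and 174 to 192 in the high-fat arrays. Of 6 measured NK cell markers Ncr1, Klrk1, Gzma and Eomes were below the filter, and neither of the other two was called. As given above, 4 of 8 Kupffer cell, 3 of 6 recruited macrophage, 3 of 8 stellate cell, 1 of 7 endothelial and 1 of 3 pancreas markers were called. The part of these cell types in the differences of Cxcl10, Cxcl9, Ccl5 and Cxcl1 was not tested.

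The other CXC and CX3C ligands gave no call among 6 tested genes, where 7.6% of all tested genes were called. Cxcl12, the ligand of Cxcr4 that stromal and endothelial cells are known to make, lay at 9.72, 9.01 and 9.24 in the normal and 9.01, 9.54 and 9.39 in the high-fat arrays. The difference was -0.01 ± 0.21 (adjusted p = 0.985, interval -0.50 to 0.48), so a change of either sign within these bounds remains possible. Its sign turned after median centring (0.039). Cxcl16, a membrane-bound chemokine and scavenger receptor, differed by 0.13 ± 0.12 (adjusted p = 0.515), and by -0.01 after quantile normalization. Its other probe set, 1449195_s_at, was 5.92, 6.04 and 5.91 in the normal and 6.23, 6.49 and 6.52 in the high-fat arrays, without overlap (0.46 ± 0.12, tested on its own, adjusted p = 0.0646). Cx3cl1, or fractalkine, differed by -0.01 ± 0.13 (adjusted p = 0.984), by 0.046 after cyclic loess and by 0.041 after median centring. Its other probe sets above the filter, 1415803_at and 1421610_at, both lay lower under the high-fat diet without overlap. They differed by -0.16 ± 0.10 and -0.31 ± 0.15 (tested on their own, adjusted p = 0.346 and 0.237). With all its probe sets averaged the difference was -0.12.

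Cxcl13, the B cell chemokine, was singled out after its values were seen. It was 5.09, 5.23 and 5.23 in the normal and 4.69, 4.89 and 4.59 in the high-fat arrays, with no overlap. The difference of -0.46 ± 0.11 missed the threshold (adjusted p = 0.0525) but passed when its probe sets were averaged (-0.58, adjusted p = 0.0234) and with a trended, robust variance (adjusted p = 0.0455). Its second probe set, 1417851_at, at 4.83, 4.77 and 4.95 against 4.09, 4.34 and 4.01, fell by 0.70 ± 0.12 (tested on its own, adjusted p = 0.0218). Of 5 measured B cell markers 3 were tested and 0 called, against 7.6% of all tested genes. Their summed levels were 100 to 113 in the normal and 96.8 to 105 in the high-fat arrays. Cxcl14 differed by -0.30 ± 0.11 (adjusted p = 0.146), with no overlap, and Cxcl17 by -0.11 ± 0.11 (adjusted p = 0.526).

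**Figure D3:**
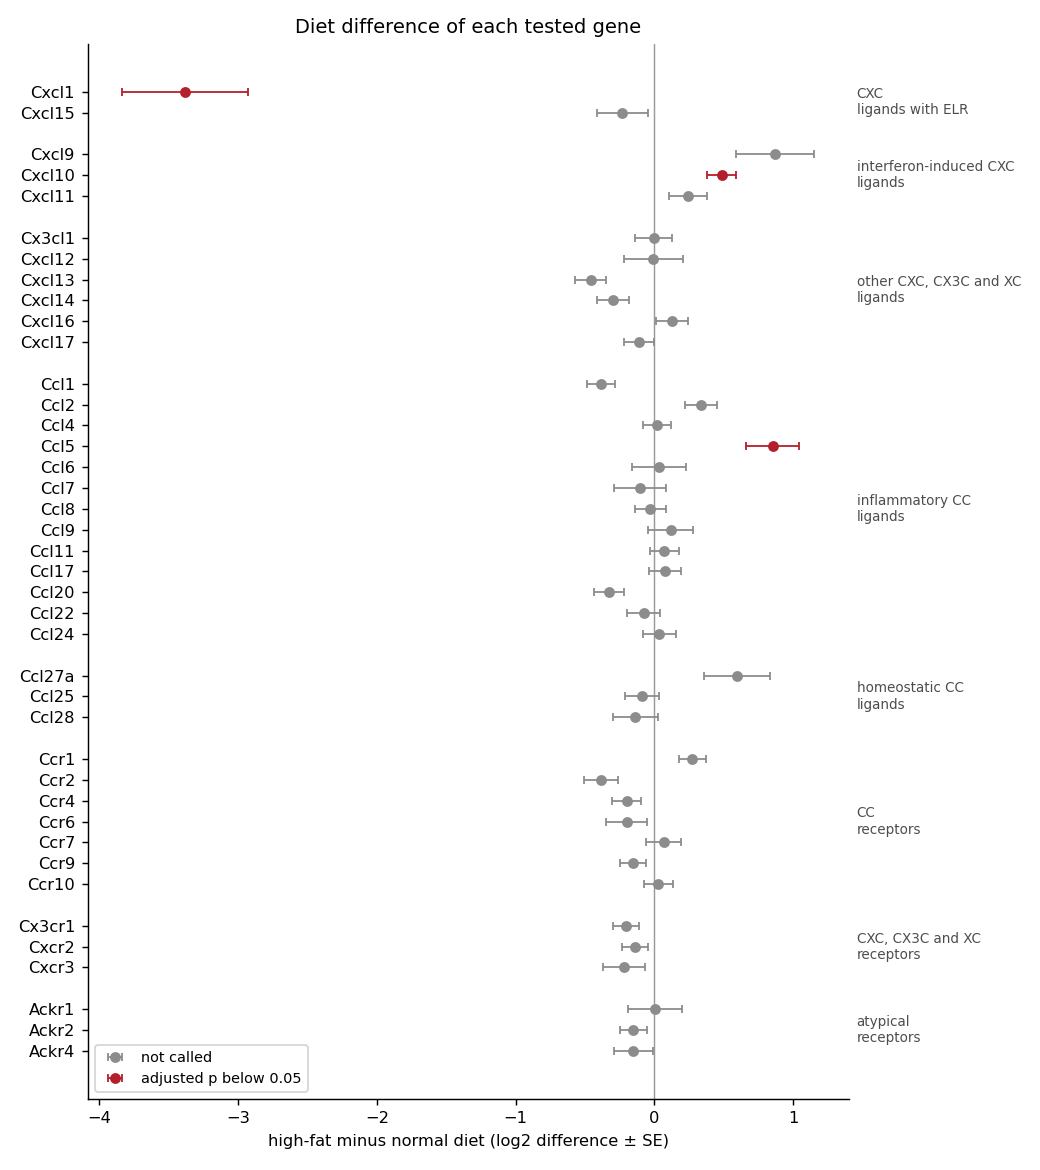
Log2 difference, high-fat minus normal diet, ± the SE of limma's fit for each of the 40 tested genes (n = 3 arrays per diet), red where the adjusted p is below 0.05. Cxcl1 is the 1 called decrease; Cxcl10 and Ccl5 are the called increases, and every receptor is grey.

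Of 13 tested inflammatory CC ligands 1 was called higher and 0 lower. That is 7.69% called, about the 7.6% of all tested genes. Ccl5, or RANTES, a ligand of Ccr1 and Ccr3 made by T cells, macrophages and other cells, was 5.32, 4.98 and 4.85 in the normal and 5.54, 6.02 and 6.16 in the high-fat arrays. All high-fat arrays lay above all normal arrays, with high-fat 1 closest to them and normal diet 3 the lowest array. The gene rose 1.81-fold (0.85 ± 0.19, n = 3, limma adjusted p = 0.0404). The call ended without normal diet 2 or 3 (adjusted p = 0.0879 and 0.0561), without high-fat 2 or 3 (adjusted p = 0.146 and 0.142) and with the plain equal-variance test (adjusted p = 0.163).

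Ccl2, or MCP-1, was 5.14, 5.09 and 5.35 in the normal and 5.62, 5.41 and 5.57 in the high-fat arrays. These do not overlap, but the difference of 0.33 ± 0.11 was not called (adjusted p = 0.114, interval 0.07 to 0.60). Ccl7, another Ccr2 ligand, differed by -0.11 ± 0.19, and Ccl8 by -0.03 ± 0.11, neither called. Ccl4, or MIP-1 beta, was 5.31, 5.37 and 5.50 in the normal and 5.46, 5.44 and 5.33 in the high-fat arrays (0.02 ± 0.10, adjusted p = 0.927, interval -0.22 to 0.25); it differed by -0.028 after quantile normalization. Its close relative Ccl3 passed the filter on 2 arrays only, high-fat 1 (4.17) and high-fat 3 (3.63), and was not tested.

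Ccl6 and Ccl9, myeloid CC chemokines of mice that are ligands of Ccr1, were far above the filter on every array. Ccl6 lay at 8.14, 8.48 and 8.92 in the normal and 8.42, 8.64 and 8.57 in the high-fat arrays (0.03 ± 0.19, adjusted p = 0.931). Ccl9 lay at 8.76, 8.36 and 8.90 against 8.68, 8.97 and 8.71 (0.12 ± 0.16, adjusted p = 0.669). Both groups overlapped for each gene, and the intervals were -0.42 to 0.48 and -0.26 to 0.49. The signs turned after quantile normalization (-0.099 and -0.021) and cyclic loess (-0.097 and -0.013).

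A pair of CC ligands was lower in every high-fat array without passing, and both were singled out after their values were seen. Ccl1, a ligand of Ccr8, was 4.58, 4.69 and 4.82 in the normal and 4.32, 4.28 and 4.32 in the high-fat arrays (-0.39 ± 0.10, adjusted p = 0.0611). It passed with array weights (-0.37, adjusted p = 0.0438), when probe sets were averaged (adjusted p = 0.0430) and with a trended, robust variance (adjusted p = 0.0499). Ccl20, the ligand of Ccr6, was 5.07, 5.16 and 5.07 against 4.71, 4.92 and 4.68 (-0.33 ± 0.11, adjusted p = 0.101). The remaining tested members of the group, Ccl11, Ccl17, Ccl22 and Ccl24, differed by -0.08 to 0.07, none called. Ccl12 was below the filter on all arrays.

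The homeostatic CC ligands gave no call among 3 tested genes, where 7.6% of all tested genes were called. Ccl27a, known from skin, was read by probe set 1434962_x_at, whose suffix marks probes that can match other transcripts. Its level was 5.47, 5.24 and 4.50 in the normal and 5.53, 5.68 and 5.79 in the high-fat arrays. Normal diet 3 was thus lowest, and normal diet 1 lay just under high-fat 1. The difference of 0.59 ± 0.24 was not called (adjusted p = 0.160). Leaving out normal diet 3 lowered it to 0.31 (adjusted p = 0.177). Ccl25 and Ccl28 differed by -0.09 ± 0.12 and -0.14 ± 0.16.

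No receptor was called by limma at the adjusted threshold. An unadjusted p below 0.05 was found for 2 of the 13, Ccr2 and Ccr1, and for 27.6% of all tested genes. Ccr2, the monocyte receptor of Ccl2, was 4.93, 4.60 and 4.94 in the normal and 4.37, 4.50 and 4.45 in the high-fat arrays (-0.38 ± 0.12, adjusted p = 0.0992), and it passed without normal diet 2 (-0.50, adjusted p = 0.0489). This rests on 1 of 4 Ccr2 probe sets. The others were below the filter on all arrays, and 1421188_at, at 2.77, 2.74 and 2.56 against 3.02, 3.31 and 3.26, lay the other way.

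Ccr1, a receptor of Ccl3, Ccl5, Ccl6 and Ccl9, was 3.18, 3.35 and 3.33 in the normal and 3.58, 3.53 and 3.58 in the high-fat arrays (0.27 ± 0.10, adjusted p = 0.124). It passed the filter on the 3 high-fat arrays only, the fewest that the filter allows, so its direction follows from how it was kept. Ccl3 and Ccr1l1, with 2 arrays above, fell just outside. Ccr4, Ccr6, Ccr7, Ccr9 and Ccr10 differed by -0.20 to 0.07, none called. Cx3cr1, the fractalkine receptor of monocytes and resident macrophages, was 4.47, 4.38 and 4.39 in the normal and 4.27, 4.13 and 4.22 in the high-fat arrays, with no overlap (-0.21 ± 0.09, adjusted p = 0.204). Cxcr4 and Cxcr6, at most 2.71 and 3.25 on any array, were below the filter throughout.

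None of the 3 tested atypical receptors was called by limma at the adjusted threshold. None had an unadjusted p below 0.05, which 27.6% of all tested genes had. Ackr1, which binds many CC and CXC chemokines, was 4.43, 4.41 and 5.08 in the normal and 4.65, 4.48 and 4.80 in the high-fat arrays (0.003 ± 0.20, adjusted p = 0.994, interval -0.45 to 0.46). Ackr2, a scavenger of inflammatory CC chemokines, differed by -0.15 ± 0.10, without overlap, and Ackr4, a scavenger of homeostatic CC chemokines, by -0.15 ± 0.14, neither called. Another Ackr2 probe set, 1437937_at, was 4.05, 4.18 and 3.99 against 4.34, 4.42 and 4.52, without overlap and in the opposite direction (0.35 ± 0.11, tested on its own, adjusted p = 0.0970). Ackr3 was below the filter on all arrays.

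Of the 54 genes, 36 were above the filter on all 6 arrays and 12 on none. The 14 untested genes were Cxcl2, Cxcl3, Cxcl5, Xcl1, Ccl3, Ccl12, Ccr1l1, Ccr3, Ccr8, Cxcr4, Cxcr5, Cxcr6, Xcr1 and Ackr3. By their highest probe sets they ranged from 2.19 to 4.17 and differed by -0.11 to 0.45. A stricter background, the 95th percentile of 80 probe sets of olfactory and vomeronasal receptors, left 24 of the 54 genes, 44.4%. Cxcl1, Cxcl10 and Ccl5 were among the 24, as were Ccl2, Ccl6, Ccl9, Cxcl9, Cxcl12 and Cxcl16, while Cxcr3, Cx3cr1 and Ccr1 were not.

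With probe sets tested one by one, 53 chemokine and receptor probe sets were tested and 6 called, 2 higher and 4 lower, or 11.3%. Of all tested probe sets 6.03% were called, 4.61% higher and 1.42% lower. The 4 lower ones were the 3 of Cxcl1 and 1 of Cxcl13, so they stand for 2 genes. Of 9 genes with several probe sets above the filter, 6 had differences of 1 sign and 3 (Ackr2, Ccl25 and Cxcl12) had both signs.

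Many of these genes lie side by side. In the RefSeq gene order of GRCm38.p6, used for neighbourhood only, 26 of 53 placed genes fell into 5 groups of at least 3 with no more than 10 other protein-coding genes between neighbours. The group on chromosome 11 with Ccl5, Ccl9, Ccl6, Ccl3 and Ccl4 had 4 tested genes, all with differences above 0 (0.02 to 0.85, only Ccl5 called), though the signs of Ccl4, Ccl6 and Ccl9 turned with scaling as given above. The other group on chromosome 11, with Ccl2, Ccl7, Ccl11, Ccl12, Ccl8 and Ccl1, held differences from -0.39 to 0.33, and the receptor group on chromosome 9, with Ccr9, Cxcr6, Xcr1, Ccr1, Ccr1l1, Ccr3 and Ccr2, from -0.38 to 0.27.

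Around Cxcl1 on chromosome 5, called neighbours lay the other way. Of the 6 protein-coding genes on each side, 7 were tested, 4 were called higher (Rassf6, Ppbp, Pf4 and Mthfd2l) and 0 lower, against 5.87% and 1.73% of all tested genes. Flanking genes were not tabulated for the other groups. Among the neighbours of Cxcl1 were 2 chemokine genes whose symbols lie outside the rule, Pf4 (Cxcl4, platelet factor) and Ppbp (Cxcl7, platelet basic protein). Pf4 was 4.67, 4.88 and 4.85 in the normal and 5.30, 5.98 and 5.77 in the high-fat arrays and rose 1.84-fold (0.88 ± 0.18, limma adjusted p = 0.0295). The call ended without normal diet 1 or 2 and without high-fat 2 or 3 (adjusted p = 0.0606, 0.0544, 0.0971 and 0.118). Ppbp was 3.20, 2.63 and 3.14 against 3.68, 3.78 and 3.57 (0.69 ± 0.16, adjusted p = 0.0483), and it passed the filter on the high-fat arrays only, so its direction follows from how it was kept. Its call ended with no level filter (adjusted p = 0.0512), without normal diet 2 and without any 1 of the high-fat arrays (adjusted p = 0.0564 to 0.164).

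**Figure D4:**
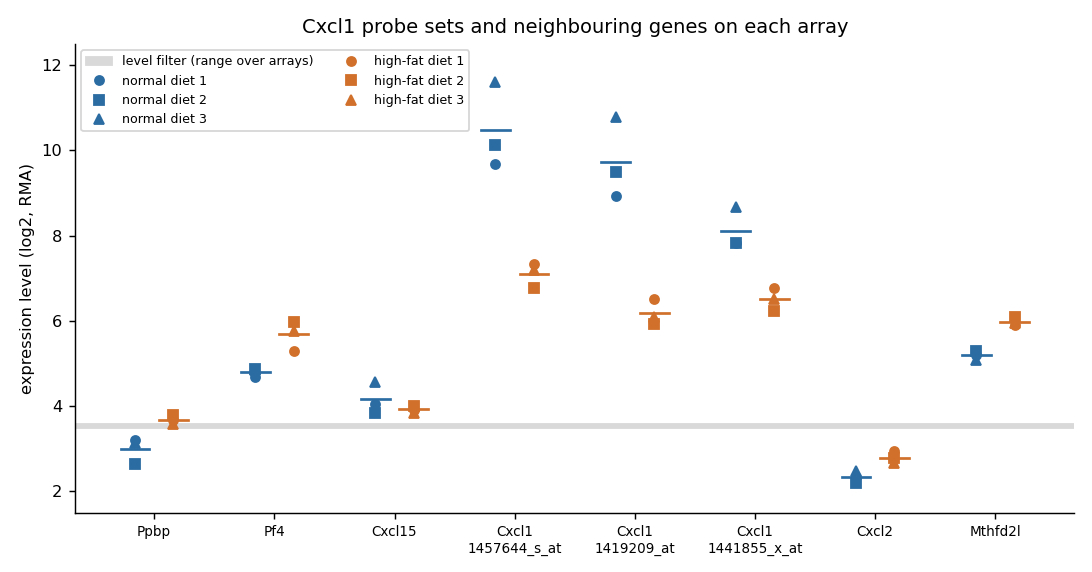
Expression level (log2, RMA) on each array for the 3 Cxcl1 probe sets and for neighbouring genes on chromosome 5, in gene order, with blue for normal and orange for high-fat diet, 1 marker shape per replicate and a bar at each mean. All Cxcl1 probe sets fall and normal diet 3 is the highest array in each, Pf4, Ppbp and Mthfd2l lie higher under the high-fat diet, and Cxcl2 lies under the grey band of the level filter.

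Around the family, genes that carry the signal of chemokine receptors changed in both directions. Among 52 tested signalling genes there were 4 increases and 3 decreases, or 13.5% called, against 7.6% of all tested genes. The median difference was 0.19. This list was chosen with earlier results of these data known, so its share is a description and not a test. Rac2, a small GTPase of leukocytes, rose 1.88-fold (0.91 ± 0.21, adjusted p = 0.0408), and Rgs19, which shuts off G protein alpha subunits, 1.66-fold (0.73 ± 0.10). Gnb2, a G protein beta subunit, rose 1.45-fold, and Cdc42, a GTPase of cell polarity, 1.49-fold. Rgs3, another such regulator, fell by 1.40 ± 0.15 on the log2 scale (adjusted p = 0.00512), Stat3 by 1.00 ± 0.14 and Tiam1, an activator of Rac, by 0.45 ± 0.10. Tiam1 passed the filter on the normal arrays only, so its direction follows from how it was kept, and it was not called after quantile normalization, cyclic loess or median centring (adjusted p = 0.0729, 0.0733 and 0.0518). Leaving out 1 array gave 0 to 4 higher and 1 to 3 lower genes, fewest without high-fat 2. Rac2 was not called whichever array was left out (adjusted p = 0.0567 to 0.103). Over the 20 alternative settings Gnb2 lost its call in 9, with differences of 0.40 to 0.59, and Cdc42 in 6, with differences of 0.14 to 0.62.

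Among 37 tested inducers and regulators of chemokine genes there was 1 increase and there were 3 decreases. That is 10.8% called, against 7.6% of all tested genes, and the median difference was -0.10. Earlier results of these data were known when this list was chosen, so the share only describes it. The 3 that fell were Il1r1, Myd88 and Il17ra. Il1r1, the interleukin 1 receptor, was 9.05, 9.50 and 10.21 in the normal and 6.83, 6.49 and 7.24 in the high-fat arrays (-2.73 ± 0.31, adjusted p = 0.00533; -1.35 when its probe sets were averaged). Myd88, the adaptor of interleukin 1 and Toll-like receptors, fell by 0.70 ± 0.11 (adjusted p = 0.0136), and Il17ra, the interleukin 17 receptor, by 0.67 ± 0.11 (adjusted p = 0.0181). Ikbkb, a kinase that activates NF-kappaB, rose 1.36-fold (0.45 ± 0.10, adjusted p = 0.0397), but lost its call after quantile normalization (0.31), after cyclic loess (0.33) and without any 1 of the 6 arrays, and differed by 0.02 with the mean of its probe sets. The uncalled genes of smallest p did not overlap between diets and lay in both directions. Irak2 and Rela were lower (-0.47 ± 0.12 and -0.48 ± 0.13, limma adjusted p = 0.0541 and 0.0730). Jun and Fos were higher (0.52 ± 0.15 and 0.62 ± 0.19, limma adjusted p = 0.0845 and 0.0859). Il1b and Nfkbia did not pass either, at -0.35 ± 0.20 and 0.16 ± 0.11, nor did Il1a, Irak1 and Il17rc, at 0.07, 0.07 and 0.03. Any link between this list and Cxcl1 was not tested. Leaving out 1 array gave 0 to 3 higher and 1 to 5 lower genes, with 1, 2 and 1 lower without high-fat 1, 2 and 3.

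Among 21 tested genes related to chemokines under other names there were 3 increases and 1 decrease. That is 19.0% called, against 7.6% of all tested genes, and the median difference was 0.36. As with the other lists, the choice was made with earlier results of these data known, so the share is a description only. Besides Pf4 and Ppbp, the latter kept by its high-fat arrays only, Cd74, the invariant chain that is also the receptor of the cytokine Mif, rose 2.31-fold (1.21 ± 0.21, adjusted p = 0.0202). Sdc4, a heparan sulfate proteoglycan of the kind that holds chemokines at the cell surface, fell by 0.70 ± 0.11 (adjusted p = 0.0142). Rarres2, which encodes chemerin, differed by 0.36 ± 0.11 (adjusted p = 0.0963) and Ccrl2, a chemerin-binding receptor, by 0.26 ± 0.10 (adjusted p = 0.157). Without high-fat 2 or 3 no gene of this list was called, and Cd74 and Sdc4 lost their calls without any 1 of the high-fat arrays (adjusted p = 0.0514 to 0.0779).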

How the data were processed

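RNA was labelled with biotin and hybridised to 6 arrays, per the labels' protocols. Per the submitters' processing notes, the authors made the deposited log2 values by RMA with Expression Console 1.0 of Affymetrix. RMA compresses differences near background. Of 45101 probe sets 64 controls were left out. For each of 18193 genes the probe set of highest mean was used, and 14071 genes were kept as above the 40th percentile of an array in at least 3 of 6 arrays. The diets were compared by lmFit and eBayes of limma 3.58.1, run in R 4.3.3 (two-sided, Benjamini-Hochberg over all genes, no replicate block); intervals are 95%. The fit was tested on simulated data. Tables and plots used Python 3.11.15, pandas 2.3.3 and matplotlib 3.10.9. Named genes were called genes, those that differed by at least 0.5 and 20 landmarks, plus Cxcl13, Ccl1 and Ccl20. Lists of 3 pathways and 13 cell types were described by counts. The dendritic cell, cholangiocyte and adipose lists, not given above, had 0 called of 4, 4 and 1 tested genes. In them Flt3, Epcam and Retn lay lower without overlap (-0.11, -0.41 and -0.40, limma adjusted p = 0.463, 0.0515 and 0.113). Of the cholangiocyte list 1 gene was called lower with array weights, with trend and robust variance and with the sensory receptor filter. Summed levels add linear values over tested genes. The genes and lists were chosen with earlier results of these data known. Same-numbered arrays of the diets did not deviate together (correlations -0.01, 0.04 and 0.0999), so the numbers were not taken as pairs. There were 20 alternative settings.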

Additional observations from a re-analysis of the deposited data

How the results depend on the processing

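The 2 increases and 1 decrease held under quantile normalization, cyclic loess, median centring, no level filter, the other level filters and probe sets without a suffix. The count of lower genes became 3 with the mean of the probe sets, 3 with trend and robust variance, 2 with probe sets one by one and 2 with array weights (373 over all genes). A plain equal-variance test called 0 higher and 0 lower of the family (12 and 6 over all genes). At an adjusted p below 0.01, 0 were higher and 1 lower (125 and 47 over all genes). With a replicate block 0 were higher and 1 lower: Ccl5 and Cxcl10 ended at adjusted p = 0.0870 and 0.0716, and Cxcl1 kept its call (adjusted p = 0.0168). No other call of the family changed with the block. Not every array deviated most like its own number. Leaving out 1 array gave 0 to 1 higher and 0 to 2 lower genes of the family, and 123 to 933 higher and 46 to 312 lower over all genes, with both family counts at 0 without high-fat 2 or 3. The share of calls that were higher was 77.2%, 66.6% after quantile normalization, 69.8% after cyclic loess and 82.9% after median centring. The sensory receptor filter left 24 genes in place of 40. Signs turned for genes near 0, none of them called: Ccl4 (-0.028 quantile), Ccl6 (-0.099 quantile, -0.097 loess), Ccl9 (-0.021 and -0.013), Cxcl16 (-0.0054 quantile), Cx3cl1 (0.046 loess, 0.041 centring, 0.058 array weights) and Cxcl12 (0.039 centring, 0.036 mean of the probe sets, 0.069 array weights). With 1 array left out they ranged from -0.023 to 0.069 (Ccl4), -0.16 to 0.23 (Ccl6), -0.041 to 0.23 (Ccl9), -0.10 to 0.077 (Cx3cl1) and -0.16 to 0.19 (Cxcl12). The cause of these changes was not tested. Signals near background limit what can be said of most receptors.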

Other observations

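Several chemokines of lymphoid tissue could not be followed by a single gene symbol, because 4 probe sets name several genes each, chemokines among them. A probe set that names Ccl21a, Ccl21b, Ccl21c and Ccl21d among 9 symbols was 5.61, 5.49 and 5.83 in the normal and 5.56, 5.66 and 5.67 in the high-fat arrays, a difference of -0.01. The probe set that names Ccl19 and its pseudogene among 10 symbols was 6.41, 6.16 and 6.26 against 6.26, 6.30 and 6.12, a difference of -0.05. The remaining 2 name Ccl27a and Ccl27b among 5 symbols and differed by 0.42 and 0.48, with normal diet 3 the lowest array in each (5.73 and 5.78), as it was for the Ccl27a probe set described above. These differences were not tested.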
